A study of Homo sapiens with 7 samples.

Results

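The genes described here encode a sodium channel beta subunit (SCN4B), a pair of hyperpolarization-activated pacemaker channels (HCN2 and HCN4) and 3 gap junction connexins (GJA1, GJA5 and GJC1). They were chosen by gene symbol, 6 of the 60234 genes in the deposited expression table, and each symbol matched 1 row. Expression had been measured by sequencing of poly-A RNA from cardiomyocytes grown from WTC-11, an established human induced pluripotent stem cell line. All cultures were matured for 35 days and then received, for 96 h at 2 uM, an ASO (antisense oligonucleotide, made to bind and lower a given transcript). The control group had a scrambled ASO (3 libraries) and the other group an ASO against MYH7B, a myosin heavy chain gene that the series title describes as a long noncoding RNA (4 libraries). The cells are 1 line, and the labels do not say whether libraries came from separate differentiations, so p-values measure the spread between these libraries, which may be technical.

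Sodium channels carry the fast inward current that starts each cardiac action potential, and their beta subunits set the surface level and gating of the pore-forming alpha subunit. HCN channels open on hyperpolarization and pass the pacemaker current of the sinoatrial node, where HCN4 is the main isoform. Connexins form the gap junctions through which current passes from cell to cell: GJA1 (connexin 43) in working myocardium, GJA5 (connexin 40) in atria and the fast conduction system, and GJC1 (connexin 45) in nodal tissue and the early heart.

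The values are TPM, an abundance corrected for transcript length and relative to all transcripts of a library, and each column sums to 1000000. TPM keeps no depth, so the depth of each library is unknown and no counting interval is given. Between 14823 and 16207 genes reached 1 TPM per library. The column of MYH7B ASO replicate 1 is out of register with the gene names as deposited. The comparisons therefore rest on 6 libraries, scrambled ASO replicates 1 to 3 against MYH7B ASO replicates 2 to 4, and replicate 1 was added only after its column was put in another gene order. Mitochondrially encoded genes took 17.2% of TPM in that library and 27.4% to 33.6% in the other 6. All 12 cardiomyocyte markers examined were above the minimum for testing, and TNNT2, cardiac troponin T, stood at 1238 ± 118 TPM (SD, n = 3) with the scrambled ASO. The ASO target MYH7B was at 23.0, 36.5 and 25.1 TPM in the scrambled ASO libraries. It was at 9.30, 5.65 and 6.31 TPM in MYH7B ASO replicates 2 to 4, and at 1.29 TPM in the reordered replicate 1, a log2 fold change over 6 libraries of -1.85 (limma adjusted p = 0.0109). The MYH7B call was lost over 7 libraries (-2.30, limma adjusted p = 0.0525), without MYH7B ASO replicate 4 (0.0618) and with no filter on low values (0.0779). The MYH7B call was also lost in every fit with a replicate block (limma adjusted p = 0.331, 0.720 and 0.161), where no gene at all was called.

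None of the channel genes passed the test across all genes. Of the 6, the 5 whose mean reached 1 TPM were tested with limma, a linear model that shares variance information between genes, on log2(TPM + 1) with Benjamini-Hochberg adjustment. An adjusted p under 0.05 is referred to as called: 0 of these 5 were called, and 1 of them (GJA5) had an unadjusted p under 0.05. Among all genes, 265 of 15988 tested genes were called, 1.66%, and 15.2% had an unadjusted p under 0.05. With so few members, 0 calls is also near the background. The authors' deposited comparison table, in which 8.71% of genes with an adjusted p-value were under 0.05, likewise held none of the 6. With replicate 1 added, 0 of the 5 tested were called by limma, against 1.07% of all tested genes. The groups of 6 libraries did not overlap for 1 of the 5, HCN2, which was lower; such separation occurred for 21.2% of all tested genes, towards lower values for 14.1% and towards higher for 7.11%.

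By level, the 6 genes spanned more than 2 orders of magnitude. GJA1 had the highest mean over the 6 libraries, 109 TPM, followed by HCN4 at 62.4 TPM. GJC1 and GJA5 came next at 19.8 and 19.4 TPM, then HCN2 at 1.93 TPM and SCN4B at 0.717 TPM. GJA1 lay above HCN4, and HCN4 above GJC1, in 6 of 6 libraries with no overlap of their ranges. The order of GJC1 and GJA5 differed by group: GJC1 was the higher in all 3 scrambled ASO libraries and GJA5 in MYH7B ASO replicates 2 to 4 and in replicate 1. The ranges of the pair overlapped, and this reversal was not tested by itself. HCN2 lay above SCN4B within each of the 6 libraries, although their ranges overlapped.

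**Figure D1:**
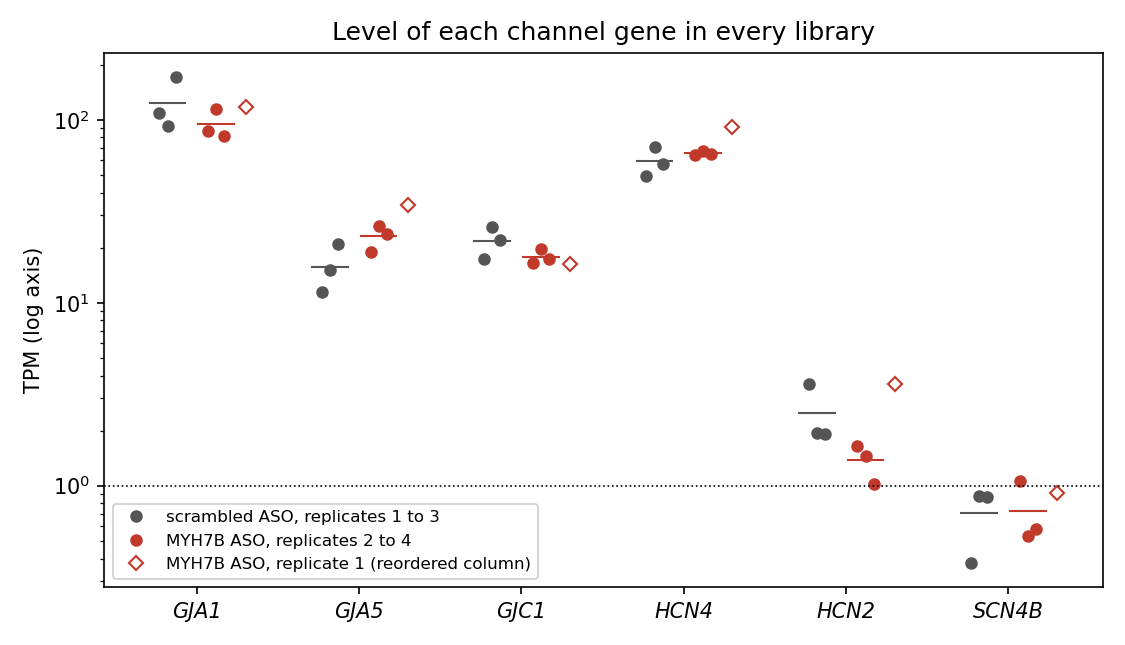
TPM on a log axis (vertical) for the 6 channel genes (horizontal), with 1 point per library, short lines for the mean of replicates 1 to 3 (scrambled ASO) and 2 to 4 (MYH7B ASO), and a dotted line at 1 TPM. HCN2 separates the groups only without the reordered replicate 1, and the groups overlap for the other 5 genes.

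GJA1 encodes the main connexin of the ventricle. It was at 109, 92.1 and 171 TPM in scrambled ASO replicates 1 to 3 and at 86.9, 114 and 81.5 TPM in MYH7B ASO replicates 2 to 4. The groups overlapped, and scrambled ASO replicate 3 was the highest of all. In replicate 1 of the MYH7B ASO group GJA1 was at 117 TPM. Its log2 fold change over 7 libraries was -0.28 (limma adjusted p = 0.633). Over 6 libraries the means were 124 ± 41.3 and 94.3 ± 17.7 TPM (SD, n = 3 each), a log2 fold change of -0.36 (SE 0.24, 95% interval -0.90 to 0.19, limma adjusted p = 0.532). Without scrambled ASO replicate 3 the difference was -0.10. GJA1 is also made by fibroblasts. In scrambled ASO replicate 3 COL1A2, a fibrillar collagen chain, was at 1079 TPM, against 603 and 613 TPM in the other scrambled ASO libraries. The fibroblast markers COL1A1, COL1A2, COL3A1 and LUM were each highest of the 7 libraries there. DCN, THY1 and FBLN1 were highest in MYH7B ASO replicate 1, and DDR2, POSTN, PDGFRA and TCF21 in other libraries.

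Fibroblast markers did not share 1 direction, with 9 of 11 log2 fold changes below 0 and 2 above. Their summed level, most of it from collagens, ran from 2960 to 5336 TPM over the scrambled ASO libraries and from 1411 to 2163 TPM over MYH7B ASO replicates 2 to 4, and was 4246 TPM in replicate 1. Of the 11 markers, all tested, 2 were called lower (COL1A2 and LUM, a matrix proteoglycan), against 1.48% of all tested genes, and none higher. The 2 above 0 were PDGFRA (0.60) and TCF21 (0.71), not called (limma adjusted p = 0.152 and 0.168). Both were higher in each of MYH7B ASO replicates 2 to 4 than in any control, as were 7.11% of all tested genes. In replicate 1 PDGFRA was at 26.5 TPM, below scrambled ASO replicate 2 (27.8 TPM). The authors' deposited table gave them adjusted p-values of 0.00287 and 0.0027. There COL1A1, COL1A2, COL3A1, LUM and DDR2 were also under 0.05, each with a log2 fold change below 0. The list median was -0.88 on the log2 scale, against -0.04 over all tested genes. With replicate 1 added none of the 11 was called, and COL1A2 and LUM were each called in 1 of the 6 fits that left out a library. In bulk RNA, fewer cells of a type and less RNA per cell cannot be told apart, and the part of these cells in the GJA1 values was not tested.

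GJA5 was the channel gene with the largest positive difference. It was at 11.4, 15.04 and 20.9 TPM with the scrambled ASO and at 19.0, 26.3 and 23.8 TPM in MYH7B ASO replicates 2 to 4. The groups overlapped in 1 place, where scrambled ASO replicate 3 exceeded MYH7B ASO replicate 2. The mean went from 15.8 ± 4.80 to 23.03 ± 3.74 TPM (SD, n = 3 each), a log2 fold change of 0.55 with a standard error of 0.23. Its limma 95% interval, before adjustment over genes, ran from 0.01 to 1.08, and the limma adjusted p was 0.316. In replicate 1 it stood at 34.0 TPM, the highest of the 7 libraries, and the log2 fold change over 7 libraries was 0.68 (limma adjusted p = 0.281). The authors' deposited table gave a shrunken log2 fold change of 0.52 (SE 0.19) and an adjusted p-value of 0.0695. Without scrambled ASO replicate 1, the lowest library, the difference was 0.35 (limma adjusted p = 0.539). GJA5 is also a gene of arterial endothelium, and of 9 endothelial markers 7, among them PECAM1, CDH5 and VWF, had a mean under 1 TPM. The other markers were TEK, at 10.6 ± 2.20 and 4.61 ± 1.96 TPM, and KDR, at 7.87 ± 1.18 and 8.50 ± 1.21 TPM (SD, n = 3 each). TEK was lower in each of MYH7B ASO replicates 2 to 4 than in any control, as were 14.1% of all tested genes (limma adjusted p = 0.111). In replicate 1 TEK was at 8.84 TPM, above scrambled ASO replicate 2 (8.08 TPM). The authors' deposited table gave TEK an adjusted p-value of 0.00346 and KDR 0.659. The part of endothelial cells in the GJA5 values was not tested. An antisense gene, AC241644.3, overlaps GJA5 and was at 4.12 TPM in scrambled ASO replicate 1 and at 0 to 0.937 TPM in the other 5 libraries. Whether counting used strand is not given in the sources used here, so reads of the pair may not be separable.

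GJC1, the connexin of nodal and embryonic heart tissue, was at 17.3, 26.0 and 21.9 TPM with the scrambled ASO. In MYH7B ASO replicates 2 to 4 it was at 16.5, 19.7 and 17.3 TPM, so the lowest scrambled ASO library lay among them. GJC1 differed by -0.26 on the log2 scale (SE 0.18, 95% interval -0.68 to 0.16, limma adjusted p = 0.567). Replicate 1, at 16.3 TPM, was the lowest of the 7 libraries.

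The share of GJA5 in the summed TPM of GJA1, GJA5 and GJC1 was also compared, as a single value per library. Other connexins, among them GJA3 and GJD2, are left out of this sum. This share is computed from the GJA5, GJA1 and GJC1 levels given above, so it is no independent evidence of their differences. GJA5 made up 8.25%, 11.3% and 9.79% of the summed TPM of GJA1, GJA5 and GJC1 in scrambled ASO replicates 1 to 3. It made up 15.5%, 16.4% and 19.4% in MYH7B ASO replicates 2 to 4, above every control library. The mean share was 9.78% ± 1.52 and 17.1% ± 2.07 (SD, n = 3 each), a difference of 7.33 percentage points (2-sided exact permutation test, p = 0.1, the smallest that 3 against 3 allows). In replicate 1 the share was 20.4%, and with it the exact permutation p was 0.0286, the smallest that 3 against 4 allows. A share of a pool also moves with its other members. GJA1 went from 76.1% ± 6.02 to 69.6% ± 2.72 and GJC1 from 14.1% ± 4.83 to 13.3% ± 0.908 (SD, n = 3 each), and both of these overlapped between groups.

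**Figure D2:**
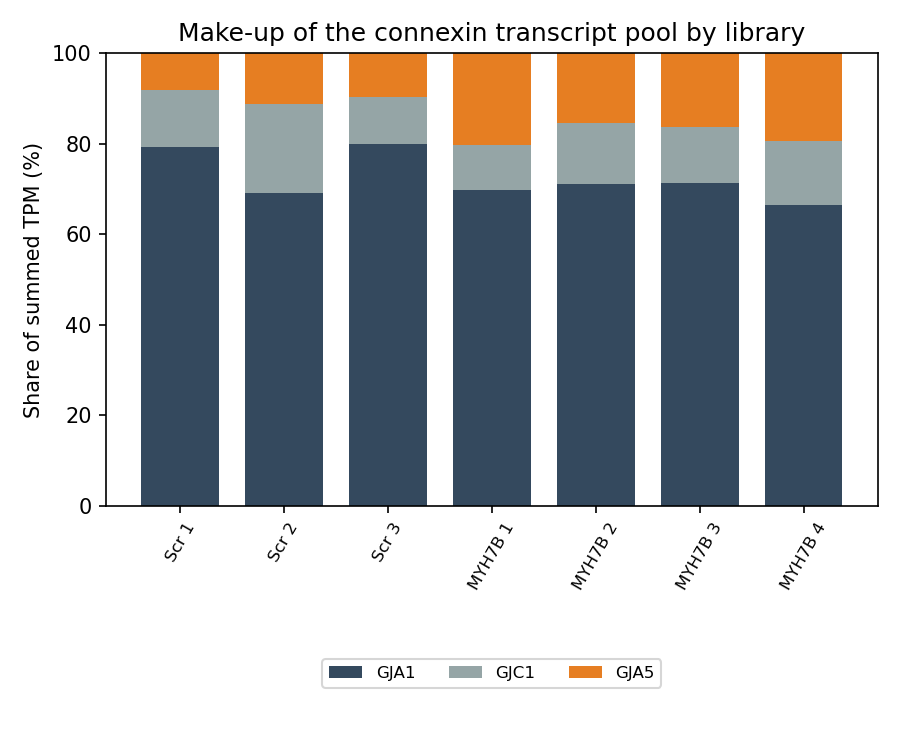
Share of summed TPM in percent (vertical, from 0 to 100) in each of the 7 libraries (horizontal; Scr is scrambled ASO), for GJA1, GJC1 and GJA5. The GJA5 share is 8.25% to 11.3% with the scrambled ASO and 15.5% to 20.4% with the MYH7B ASO.

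Among the other connexins the abundant gene was GJA3 (connexin 46, best known from the eye lens). It was at 28.0, 39.4 and 25.5 TPM with the scrambled ASO and at 45.0, 32.6 and 34.3 TPM in MYH7B ASO replicates 2 to 4, above GJA5 and GJC1 in mean. GJD2 (connexin 36, known from neurons) was at 11.4 ± 3.05 and 9.84 ± 1.57 TPM (SD, n = 3 each). Of 24 connexin and pannexin genes, 8 were tested, 16 had a mean under 1 TPM and 4 were listed at 0 in all 6 libraries. None of the 8 was called, with 5 log2 fold changes above 0 and 3 below and a list median of 0.15. GJA3 differed by 0.27 (limma adjusted p = 0.584). In MYH7B ASO replicate 1 GJA3 was at 21.2 TPM, the lowest of the 7 libraries, and over 7 libraries its log2 fold change was 0.08 (limma adjusted p = 0.918).

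HCN4, the principal sinoatrial pacemaker channel, was at 49.1, 71.1 and 57.4 TPM with the scrambled ASO. The 3 MYH7B ASO libraries lay within that range, at 64.0, 67.4 and 65.2 TPM. HCN4 differed by 0.16 on the log2 scale (SE 0.16, 95% interval -0.21 to 0.53, limma adjusted p = 0.679). Its antisense neighbour AC068397.2 was at 0 to 2.80 TPM. Replicate 1 stood apart at 90.7 TPM, and over 7 libraries the log2 fold change was 0.28 (limma adjusted p = 0.557).

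HCN2, the isoform that accompanies HCN4 in working myocardium, was low throughout. It was at 3.58, 1.95 and 1.91 TPM with the scrambled ASO and at 1.65, 1.46 and 1.03 TPM in MYH7B ASO replicates 2 to 4, so these groups did not overlap. HCN2 differed by -0.53 on the log2 scale (SE 0.32, 95% interval -1.26 to 0.20, limma adjusted p = 0.487). Scrambled ASO replicate 1 was the highest control library, and without it the difference was -0.31. In replicate 1 of the MYH7B ASO group HCN2 was at 3.61 TPM, the highest of the 7 libraries. For HCN2, -0.54 (adjusted p-value 0.152) stands in the authors' deposited table.

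**Figure D3:**
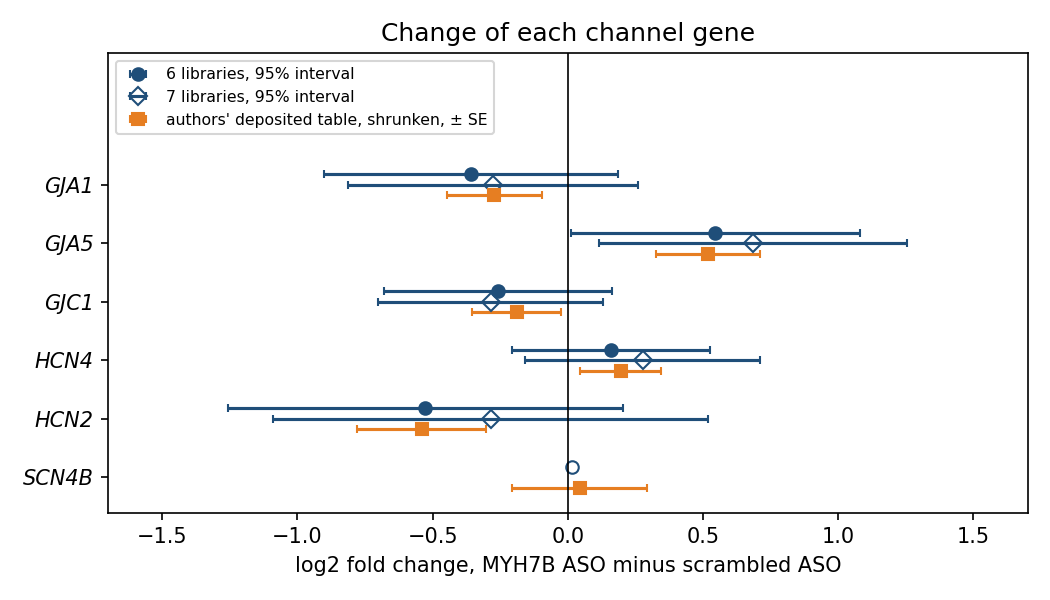
Log2 fold change of MYH7B ASO minus scrambled ASO (horizontal) for each channel gene (vertical). Filled circles (6 libraries) and open diamonds (7 libraries) are limma estimates on log2(TPM + 1) with 95% intervals, squares are the authors' deposited shrunken values ± SE, and the open circle is the untested difference of SCN4B; only the GJA5 intervals lie above 0, before any adjustment for the number of genes.

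Among genes known to bind HCN channels, the most abundant examined were FLNA, a filamin that links membrane proteins to actin, and VAPA, an endoplasmic reticulum contact protein. FLNA was at 126 ± 36.7 and 110 ± 11.6 TPM and VAPA at 117 ± 24.3 and 119 ± 13.1 TPM (SD, n = 3 each), with log2 fold changes of -0.16 and 0.04 (limma adjusted p = 0.752 and 0.948). In MYH7B ASO replicate 1 FLNA was at 233 TPM, the highest of the 7 libraries, and VAPA at 91.1 TPM. Over 7 libraries both signs reversed, to 0.11 and -0.06 (limma adjusted p = 0.898 and 0.921).

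SCN4B was at the limit of what the TPM values resolve. It was at 0.38, 0.873 and 0.869 TPM with the scrambled ASO and at 1.07, 0.529 and 0.582 TPM in MYH7B ASO replicates 2 to 4, fully overlapping. Its mean was below 1 TPM in both groups, so it was not tested, and its difference on the log2(TPM + 1) scale was 0.02. When no minimum was set, limma gave an adjusted p of 0.981 for it. In the authors' deposited table SCN4B had a mean normalized count of 67.7. Its shrunken log2 fold change there was 0.04 with a standard error of 0.25 (adjusted p-value 0.951).

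Other sodium channel subunits were scarce as well. Of 13 alpha and beta subunit genes, 10 had a mean under 1 TPM and none was called. SCN2B, the most abundant beta subunit gene, differed by 0.32 and SCN3B by -0.33 on the log2 scale (limma adjusted p = 0.629 and 0.691).

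Partners of the sodium channel held 3 called genes. Of 14 such genes, 12 were tested: 3 were called lower and none higher, where 1.48% of all tested genes were called lower, and the list median was -0.24 with 7 below 0 and 5 above. SLMAP, a sarcolemma-associated protein reported to act on sodium channel trafficking, fell from 35.2 ± 5.34 to 9.91 ± 1.46 TPM (SD, n = 3 each; log2 fold change -1.73, limma adjusted p = 0.00534). FGF12, an intracellular factor that binds the channel tail and shifts its inactivation, was at 5.87, 4.51 and 5.59 TPM in controls and at 1.59, 1.44 and 1.96 TPM after the MYH7B ASO, a log2 fold change of -1.25 (limma adjusted p = 0.0413). ANK2, ankyrin B, a membrane scaffold, changed by -0.78 (limma adjusted p = 0.0370).

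Only SLMAP of these 3 kept its call in all 6 fits that each left out a library, and FGF12 and ANK2 lost theirs in each of the 6. With replicate 1 added, SLMAP was called (limma adjusted p = 0.0181) and FGF12 and ANK2 were not (0.0733 and 0.233). CAMK2D, a kinase of the channel and an abundant uncalled partner, had a log2 fold change of -0.33 (limma adjusted p = 0.346).

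Genes of sinoatrial identity and pacemaking did not share a direction. All 14 were tested, with 1 called higher and 1 lower and a list median of -0.18. Among all tested genes 1.48% were called lower. ISL1, a transcription factor of second heart field and sinoatrial cells, was at 9.03, 9.52 and 11.1 TPM in controls and at 18.6, 24.4 and 18.6 TPM in MYH7B ASO replicates 2 to 4. ISL1 rose by 0.98 on the log2 scale (limma adjusted p = 0.0359), a direction in which 0.181% of tested genes were called. RGS6, a regulator that speeds the end of muscarinic signalling to the heart's potassium channels, fell from 6.75 ± 1.66 to 0.906 ± 0.374 TPM (SD, n = 3 each), a log2 fold change of -2.02 (limma adjusted p = 0.0125). Over 7 libraries both were called (limma adjusted p = 0.0436 and 0.0145). ISL1 lost its call whenever 1 of the 6 libraries was left out, and RGS6 did so without scrambled ASO replicate 1 (0.0572) and MYH7B ASO replicate 2 (0.0510) or 4 (0.0645).

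The node transcription factors SHOX2 and TBX3, which stand beside HCN4 in sinoatrial cells, were not called. SHOX2 was at 42.0 ± 8.35 and 61.1 ± 23.5 TPM and TBX3 at 5.81 ± 1.53 and 4.90 ± 0.509 TPM (SD, n = 3 each). POPDC2, a cyclic AMP binding membrane protein, and SLC8A1, the sodium-calcium exchanger, were the most abundant uncalled genes of the list, with log2 fold changes of -0.39 and -0.66 (limma adjusted p = 0.178 and 0.139).

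Around the gap junction, 1 gene of the intercalated disc passed the test. Of 15 disc and junction partners 14 were tested. CTNNA3 was called lower, where 1.48% of all tested genes were, and none was called higher. The list median of -0.03 was close to that of all tested genes. CTNNA3 encodes alpha-T-catenin, which ties cadherins and desmosomes to actin in the disc. It was at 16.1, 17.6 and 10.5 TPM with the scrambled ASO and at 2.98, 2.51 and 2.81 TPM in MYH7B ASO replicates 2 to 4, a fall of 2.04 on the log2 scale that held in all 6 fits leaving out a library (limma adjusted p = 0.00599). LRRTM3, which lies inside it on the other strand, was at 1.55 to 4.29 TPM. CTNNB1 (beta-catenin) and CDH2 (N-cadherin), the most abundant uncalled partners, differed by 0.24 and -0.01.

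None of the 20 transcription factors of the conduction and chamber programmes was called, all of them tested. Of these, 15 had log2 fold changes above 0 and the list median was 0.33. GATA4 and NKX2-5, both activators in the cardiac programme and the most abundant of the list, were at 155 ± 10.1 and 126 ± 17.6 TPM, and at 104 ± 4.23 and 144 ± 58.1 TPM (SD, n = 3 each).

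**Figure D4:**
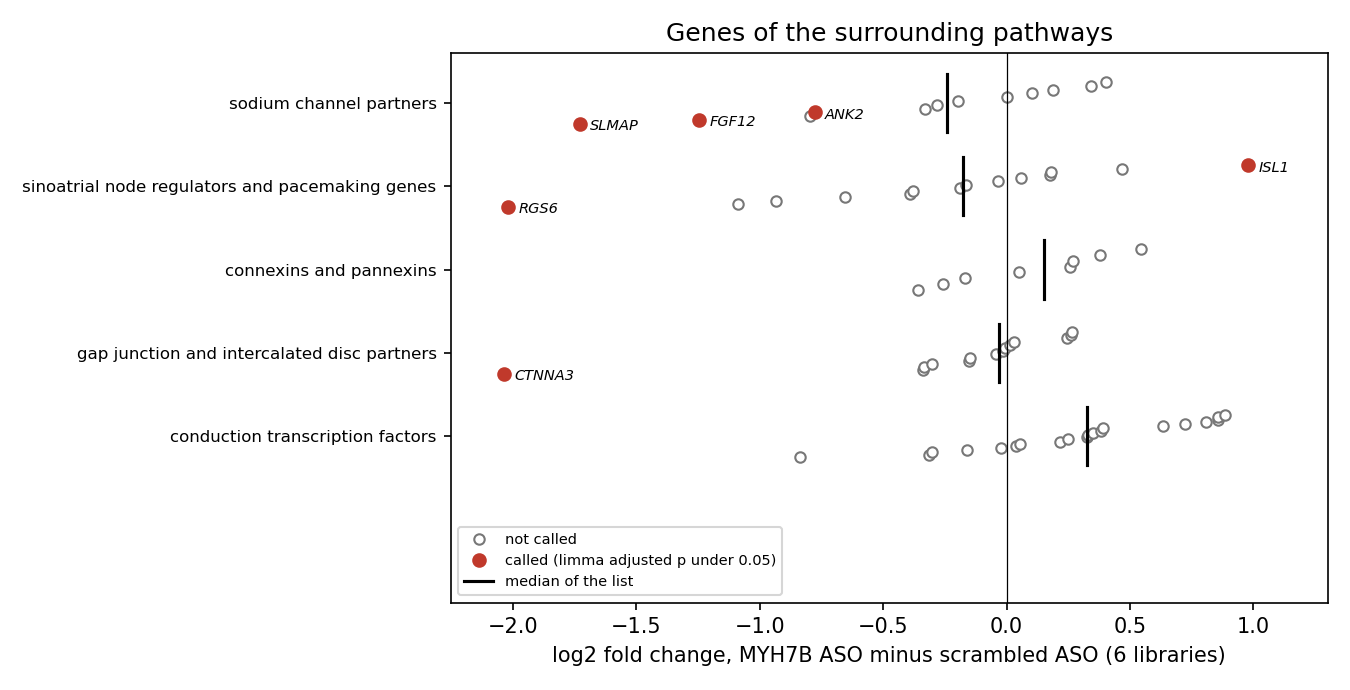
Log2 fold change over 6 libraries, MYH7B ASO minus scrambled ASO (horizontal), of the tested genes in 5 lists (vertical), with 1 circle per gene, filled where called and named, and a bar at the list median. The called genes are SLMAP, FGF12, ANK2, RGS6, CTNNA3 (lower) and ISL1 (higher), and no connexin is among them.

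Over the 6 libraries, the genes whose levels followed each channel gene most closely were ranked by Pearson r on log2(TPM + 1) among 10382 genes whose mean reached 5 TPM. With 6 points and so many genes, high values arise readily, and these are descriptions. GJA1 was followed by MPZL1, ANXA2 and DOK5 (r = 0.997, 0.995 and 0.993), GJA5 by GCA, ACSL3 and KBTBD2 (0.993, 0.988 and 0.986) and GJC1 by NPIPB5, ATF2 and KCNMB4 (0.996, 0.988 and 0.984). HCN4 was followed by EGLN3, OGFOD2 and BAG6 (0.985, 0.983 and 0.979) and HCN2 by NPEPPS, ERCC4 and XIAP (0.994, 0.989 and 0.989). None of these 15 genes was itself called.

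In the GENCODE 29 annotation on GRCh38 the channel genes are compact. GJA1 lies on chromosome 6 at 121435577 to 121449727, GJA5 on chromosome 1 at 147756199 to 147773362 and GJC1 on chromosome 17 at 44798448 to 44830816. HCN4 lies on chromosome 15 at 73319859 to 73369264, HCN2 on chromosome 19 at 589893 to 617159 and SCN4B on chromosome 11 at 118133377 to 118152888. Each therefore spans under 50 kb, from 14151 bp for GJA1 to 49406 bp for HCN4. Of the called genes of the pathway lists, ISL1 spans 11348 bp and 5 others span more than any channel gene: SLMAP spans 173719 bp, ANK2 565632 bp, FGF12 628370 bp, RGS6 634091 bp and CTNNA3 1783652 bp. The target MYH7B (27035 bp) and the called fibroblast markers LUM (9203 bp) and COL1A2 (36672 bp) are shorter than HCN4.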

How the data were processed

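Poly-A RNA of 7 libraries was sequenced by the authors, who deposited TPM per gene. They also deposited a comparison table that holds, for each gene, the signal as a normalized count averaged over libraries, shrunken log2 fold changes and their errors, a score (the test statistic), and p-values with adjusted p-values for 15527 of 25374 genes, per the file headers. GRCh38.p13 and DESeq2 are named in the submitters' processing notes. Aligner, quantifier and annotation release are not given in the sources used here. No per-sample column was left unused.

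MYH7B ASO replicate 1 has values in its first 58721 positions, the number of GENCODE 29 genes. Assigned to those sorted identifiers, its median correlation with the other libraries across genes rose from 0.408 to 0.955. It was used only as an alternative.

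Genes whose mean reached 1 TPM were tested with limma 3.58.1 (R 4.3.3; lmFit, eBayes with intensity trend) on log2(TPM + 1), pseudocount 1, with Benjamini-Hochberg adjustment over all tested genes. Tested on simulated data of this size, the share of false calls averaged slightly above the nominal level. Fold changes on this scale understate changes of low genes. The GJA5 share was compared by exact permutation. Alternatives were other pseudocounts, filters, scalings and variance settings, removal of mitochondrially encoded genes, 7 libraries, replicate blocks and leaving out each library. Tables and plots used Python 3.11.15. Named were the 6 channel genes, MYH7B, up to 6 called genes and 2 abundant uncalled genes of each list, and the 3 genes most like each channel gene; SHOX2, TBX3, SCN3B, GJD2, the endothelial markers, PDGFRA, TCF21, TNNT2 and overlapping genes were added after their values were seen. Results that rest on some other genes of the lists, among them a planned comparison of shares, are not reported here. Markers of 8 cell types were counted per list. Members and lists were chosen with earlier results of these data known.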

Additional observations from a re-analysis of the deposited data

Results flagged for a closer look

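HCN4 was at 90.7 TPM in MYH7B ASO replicate 1, against 64.0 to 67.4 TPM in MYH7B ASO replicates 2 to 4. The gap to the nearest library was wide for the range of 4 values (Dixon's criterion). This was the single case among 7 measures tried, the 6 channel genes and the GJA5 share, and about 1 in 20 stands apart by chance. The column of that library had to be reordered, and mitochondrially encoded genes took 17.2% of its TPM. The part of either in the HCN4 value was not tested.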

How the results depend on the processing

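None of the 5 tested channel genes was called, and none changed sign, under any of the 19 alternatives in which it was tested, with limma adjusted p from 0.165 (GJA5, without scrambled ASO replicate 3) upward. The log2 fold changes ran from 0.32 to 0.76 for GJA5, from 0.04 to 0.32 for HCN4, from -0.55 to -0.10 for GJA1, from -0.40 to -0.12 for GJC1 and from -0.77 to -0.13 for HCN2. The number of genes called in the whole table was less stable. It was 265 as reported, 40 with no filter on low values, 150 without the intensity trend, 170 over 7 libraries and 53 to 149 when 1 library was left out. Of the 265, 29 were higher and 236 lower, and with median-ratio rescaling 58 were higher and 213 lower. With the replicate block by title number 0 genes were called, with 1718 at an unadjusted p under 0.05. With the block by description number 0 were called (1096 at an unadjusted p under 0.05), and over 7 libraries with the title block 0 (1773). The labels do not say that a number marks a shared culture, and same-numbered libraries had correlations of deviations of 0.076 and 0.11 by title and -0.073 and -0.039 by description, so the numbers were not taken to pair the samples. The difference in GJA5 share was 6.16 to 8.13 percentage points with 1 library left out, 8.14 over 7 libraries and 5.40 with the title block over 2 pairs. Over 7 libraries that share had an exact permutation p of 0.0286; with 6 libraries or fewer none could go below 0.1. Without depth, changes in SCN4B and other genes under 1 TPM could not be resolved from the TPM values.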

Other observations

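Some markers of other cell types also differed between the groups. Of 6 smooth muscle markers, all tested, 1 was called lower and none higher, where 1.48% of all tested genes were called lower. This was MYH11, the smooth muscle myosin, from 70.1 ± 10.2 to 12.9 ± 4.54 TPM (SD, n = 3 each, limma adjusted p = 0.00599). The 6 did not share 1 direction, with 4 log2 fold changes below 0 and 2 above, CNN1 (0.24) and SMTN (0.07). Their summed level ran from 962 to 1361 TPM with the scrambled ASO. It was 576 to 752 TPM in MYH7B ASO replicates 2 to 4 and 1110 TPM in replicate 1. Of 9 endothelial markers 2 were tested and none was called. Of 6 neural and glial markers STMN2 alone was tested, and it was called lower, from 10.3 ± 1.20 to 2.47 ± 1.49 TPM (SD, n = 3 each; limma adjusted p = 0.0341). MYH11 was called in all 6 fits that each left out a library, and STMN2 in 1 of the 6. None of the 5 epicardial markers, all tested, was called, nor any of the 3 pluripotency and 4 epithelial or endoderm markers tested. Of 12 cardiomyocyte markers none was called, with 10 log2 fold changes below 0 and a list median of -0.43. ACTN2, MYL7, NPPA, RYR2, PLN, TNNI3 and CASQ2 were lower in each of MYH7B ASO replicates 2 to 4 than in any control, as were 14.1% of all tested genes. TNNI1 was higher in each, as were 7.11%. In the authors' deposited table only RYR2 and CASQ2 of these markers had an adjusted p-value under 0.05 (0.000232 and 0.00117), both with log2 fold changes below 0.

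The share of genes called lower differed between classes of gene span. Among 15852 tested genes with a span in GENCODE 29, 0.531% of the 10553 under 50 kb were called lower, 1.25% of the 2486 from 50 to 100 kb, 2.31% of the 1691 from 100 to 200 kb and 9.71% of the 1122 of 200 kb and over. These classes were chosen after the values were seen. The median log2 fold change in them was 0.03, -0.13, -0.23 and -0.42. All 6 channel genes fall in the shortest class, and ANK2, FGF12, RGS6 and CTNNA3 in the longest. The cause was not tested.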
